A study of Mus musculus with 2 samples.

Results

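Malat1, Neat1, Gm26917, Meg3 and Kcnq1ot1 are long noncoding RNAs that were taken as a set of 5 among the 32285 genes of the count matrices, by their gene symbols. They were chosen by symbol with their counts over cell types, depth and mitochondrial share of these libraries already known, as transcripts held to stay in the nucleus, so their levels are given as a description and no test supports the choice. All 5 identifiers were found in the GENCODE M21 annotation, which types 4 of them as intergenic and Kcnq1ot1 as antisense. Single-cell RNA sequencing had been carried out on dissociated prostate of wild-type C57BL6 male mice, with no treatment or altered allele named in the labels. The ventral library came from the ventral lobes, with 10x Genomics chemistry v2. The proximal library came from tissue next to the urethra (the proximal and periurethral region), with chemistry v3. Each group had 1 library, so no difference below has a replicate check, the chemistry and the region of the gland cannot be told apart, and the 95% intervals cover counting error only. The age of the animals and the number pooled in a library were not given in the sources used here.

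Most messenger RNAs are exported to the cytoplasm, where ribosomes read them, while some long noncoding RNAs stay where they were made. Malat1 collects in nuclear speckles, bodies rich in splicing factors, and Neat1 is the scaffold around which paraspeckle proteins assemble. Kcnq1ot1 and Meg3 are imprinted, which means that only the copy from the father (Kcnq1ot1) or from the mother (Meg3) is read, and Kcnq1ot1 acts in silencing the genes around it. Because of where they reside, such RNAs are used in droplet experiments as a sign of whether a droplet held a nucleus: enucleated red blood cells or pieces of cytoplasm should carry little of them, and a nucleus without its cytoplasm should carry much of them beside few mitochondrial and ribosomal protein transcripts.

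The reads were captured from poly(A) stretches, so the sequence at the annotated 3' end of each RNA is shown first. Coordinates are those of GRCm38, the build that mm10 names, with GENCODE M21. Malat1 (chr19:5795690-5802672, minus strand, 6983 bases) and Neat1 (chr19:5824708-5845478, minus strand, 20771 bases) lie 22035 bases apart. Gm26917 (chr17:39843013-39846341, plus strand) ends 616 bases before Gm42418, a transcript that lies beside ribosomal DNA-like sequence. Meg3 (chr12:109541001-109571726, plus strand) overlaps Gm26906 on the other strand. Kcnq1ot1 (chr7:143203458-143296549, minus strand, 93092 bases in 1 exon) lies inside Kcnq1 (chr7:143106362-143427042), which is read from the other strand. Whether the deposited counts kept strand or intronic reads was not given in the sources used here. Whether molecules of such overlapping partners were kept apart was therefore not tested. The last 60 bases of the longest annotated transcript follow, with that of the short Neat1 transcript, and the polyadenylation signal AATAAA is in capitals.
Malat1-201 (chr19:5795690-5795749, minus strand): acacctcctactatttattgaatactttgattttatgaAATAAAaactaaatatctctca
Neat1-202 (chr19:5842307-5842366, minus strand): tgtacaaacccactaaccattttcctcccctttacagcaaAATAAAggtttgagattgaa
Neat1-201 (chr19:5824708-5824767, minus strand): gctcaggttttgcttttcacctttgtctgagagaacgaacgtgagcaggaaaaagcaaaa
Meg3-209 (chr12:109571667-109571726, plus strand): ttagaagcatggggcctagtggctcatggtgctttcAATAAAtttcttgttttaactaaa
Kcnq1ot1-201 (chr7:143203458-143203517, minus strand): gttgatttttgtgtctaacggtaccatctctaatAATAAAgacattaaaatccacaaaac
Gm26917-202 (chr17:39846282-39846341, plus strand): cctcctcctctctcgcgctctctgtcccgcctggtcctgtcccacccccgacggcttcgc

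The signal, searched on the transcript's strand, was in this window for the longest transcripts of Malat1, Meg3 and Kcnq1ot1 and for the short Neat1 transcript. It was not in the window for the long Neat1 transcript or for Gm26917, and 48.8% of the 32158 genes with an annotated transcript had it. Gm26917 had a GC content of 69.1% and no run of A longer than 4 bases. Runs of A inside the Malat1 and Kcnq1ot1 transcripts are shown next because an oligo-dT primer can bind them as well (the run is in capitals, with 20 bases on each side).
Malat1-201 (chr19:5795968-5796019, minus strand): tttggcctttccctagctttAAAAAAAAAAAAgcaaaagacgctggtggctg
Kcnq1ot1-201 (chr7:143226925-143227005, minus strand): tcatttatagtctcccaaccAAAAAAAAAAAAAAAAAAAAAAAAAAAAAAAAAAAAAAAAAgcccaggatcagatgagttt
The Malat1 run has 12 A, a length that 7.64% of genes reach. The Kcnq1ot1 run has 41 A, and 11 genes (0.0342%) have a run of at least 40. The deposited counts hold no read positions, so capture at any of these places was not tested.

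The ventral library held 2221 barcodes with 49356586 unique molecular identifiers (UMIs, each 1 captured molecule) and the proximal library 4344 barcodes with 97817603, and they shared 0 barcodes. After barcodes with under 500 genes or over 10% mitochondrial (mt-) UMIs and called doublets were removed, 1988 and 3705 cells were kept, with a median of 25758.5 and 15260 UMIs. Clusters were named from marker lists and are called "-like" for that reason. The ventral lobes' secretory transcripts Sbp and Spink1 took 44.0% of ventral and 5.92% of proximal UMIs, which lowers the share left for every other gene in ventral secretory cells.

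Malat1 gave 526940 ventral UMIs, 10676 CPM (10647 to 10705; CPM is a gene's UMIs over all UMIs of the same barcodes, scaled to the usual common total), and 2270638 proximal UMIs, 23213 CPM (23183 to 23243). A UMI of it was in 96.5% of ventral and 99% of proximal barcodes. In the ventral library its summed level was highest in basal-like cells, the layer beneath the secretory epithelium, at 23121 CPM. Proximal luminal-like cells had 18505 CPM, macrophage-like cells 15861, distal luminal-like cells, the secretory cells of the gland's ends, 9903, and T or NK cell-like cells 8120. Fibroblast-like cells came first in the proximal library, at 43515 CPM, before basal-like (35232), endothelial-like (30978) and proximal luminal-like cells (28507). Macrophage-like (20547), T or NK cell-like (18314), seminal vesicle epithelium-like (12505) and distal luminal-like cells (10141) followed. The 398 cells in clusters without a name had 26691 CPM, and 6 smooth muscle-like cells had 54165. No 2 neighbours in either order (smooth muscle-like cells left aside) had overlapping counting intervals, which were narrow because a class held at least 2746 Malat1 UMIs. By the median cell the ventral order was another, with macrophage-like cells at 24189 CPM beside 23312 for basal-like cells, and T or NK cell-like cells at 9624 beside 8933 for distal luminal-like cells. Proximal T or NK cell-like and macrophage-like cells also changed places, at 19703 and 18963 CPM.

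The basal-like over distal luminal-like ratio of Malat1 was 2.33 (2.30 to 2.37) for ventral and 3.47 (3.46 to 3.49) for proximal cells. The ventral ratio rested on the scale. With mt- genes, Sbp and Spink1 left out of the total its log2 value was 0.33 in place of 1.22, and the proximal one 1.53 in place of 1.80. Cells of a class also differed from each other. The middle 80% of proximal distal luminal-like cells ran from 256 to 21634 CPM around a median of 8716, against 19373 CPM at the low end for basal-like cells with a median of 35423.

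**Figure D1:**
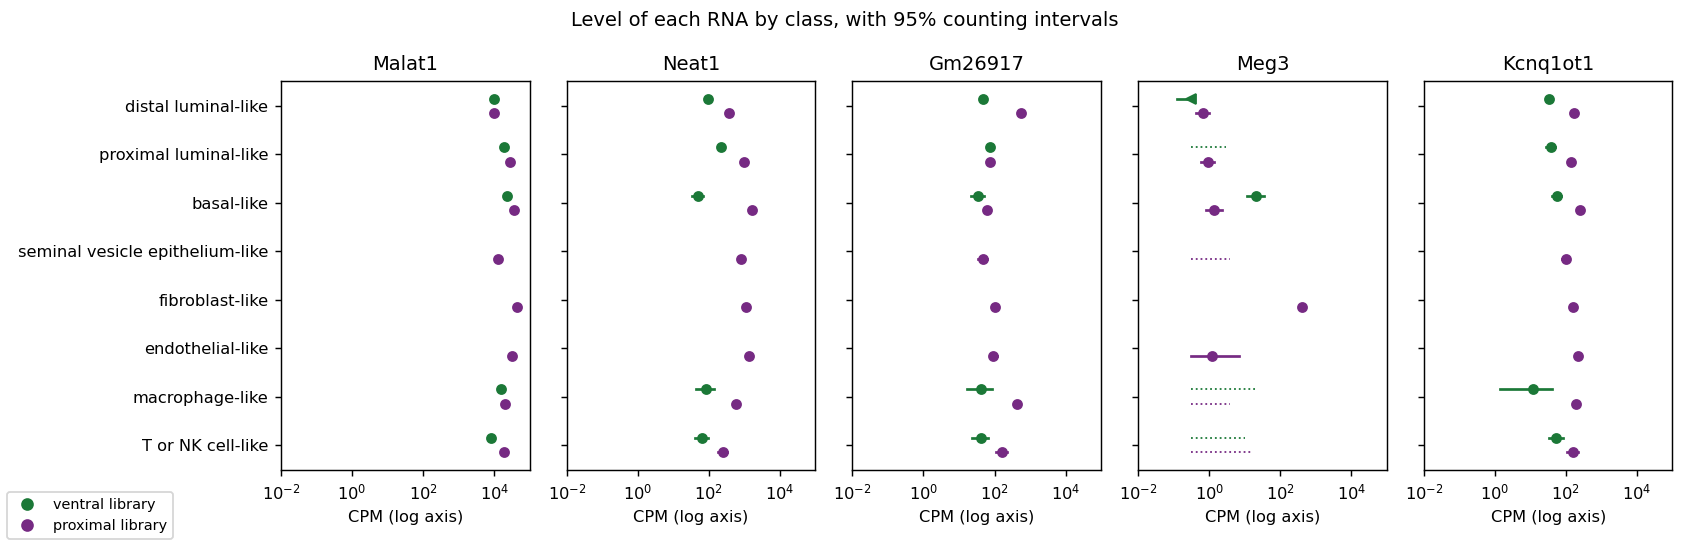
Level of each RNA in each class and library, in CPM on a log axis, as points with 95% counting intervals; dotted lines run up to the interval's upper end where no UMI was found. Malat1 spans 8120 to 43515 CPM over the classes drawn, while Meg3 stands at 412 CPM in fibroblast-like cells and at 20.7 CPM or less in every other class drawn.

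Neat1, the paraspeckle scaffold, followed another order. Ventral proximal luminal-like cells had 225 CPM (199 to 253) and distal luminal-like cells 96.6 (93.8 to 99.5). Macrophage-like cells had 80.9, T or NK cell-like cells 65.0 and basal-like cells 48.2 (33.6 to 67.1; 35 UMIs), and of these neighbours, distal luminal-like cells included, none were separated by their intervals. The 6 smooth muscle-like cells, at 1970 CPM (1648 to 2336), are left out of the proximal order here and for the next members. Among the other classes proximal basal-like cells had 1677 CPM (1654 to 1700), followed by endothelial-like (1380), fibroblast-like (1088), proximal luminal-like (953) and seminal vesicle epithelium-like cells (785). Macrophage-like cells had 599 CPM, distal luminal-like cells 371 and T or NK cell-like cells 246, and no neighbours in this order overlapped.

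Basal-like cells, among the lowest classes for Neat1 in the ventral library, thus had a high level in the proximal one, a ratio of 34.8 (25 to 49.9) between the libraries. Ventral basal-like cells were also shallower, with a median of 4933 UMIs against 12012.5. After thinning each cell to 1000 UMIs, 6 of 140 ventral basal-like cells had a Neat1 UMI, 4.29% (1.59 to 9.09), and 586 of 908 proximal ones, 64.5% (61.3 to 67.7). Without thinning the shares were 22.7% and 94.1%. Within the proximal library the basal-like clusters were unequal: the cluster led by Krt14 and Krt17 (491 cells) had 1999 CPM, that led by Grp and Ivl (222 cells) 1710, and that led by Trp63 (195 cells) 408 (378 to 439). The last was nearest to the ventral basal-like level and still well above it.

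The mRNAs of proteins that build paraspeckles did not share the size of this difference. Counts of genes at least 2-fold higher or lower were taken with 10 CPM added to each side, here and below. Of 12 mRNAs of paraspeckle proteins, 3 were at least 2-fold higher in proximal than in ventral basal-like cells. Among them were Sfpq (257 against 66.2 CPM) and Cpsf6 (52.3 against 20.7). Of all 10366 genes compared there, 17.6% were at least 2-fold higher, and 2 of the 4 members compared, Neat1 and Kcnq1ot1. The list's median log2 ratio was 0.57 beside 0.19 over all genes. Nono, which pairs with Sfpq in paraspeckles, had 60 CPM in proximal and 134 in ventral basal-like cells, and Hnrnpk 303 and 343. Cpsf6 and Nono were named after their values were seen.

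Kcnq1ot1 had mostly overlapping levels between neighbouring classes. In the ventral library it lay at 55.1 CPM (39.4 to 75.1) in basal-like, 54.2 in T or NK cell-like, 37.0 in proximal luminal-like and 33.6 (32.0 to 35.3) in distal luminal-like cells, and 2 UMIs were found in macrophage-like cells. All neighbours in this order overlapped. In the proximal library basal-like cells had 257 CPM (249 to 267), endothelial-like cells 215, macrophage-like cells 198 and distal luminal-like cells 167 (163 to 171). Fibroblast-like (159), T or NK cell-like (158) and proximal luminal-like cells (141) followed, and seminal vesicle epithelium-like cells had 97.8. Only proximal luminal-like and unnamed cells (125) were neighbours without overlap. The larger basal-like, distal luminal-like and proximal luminal-like (136 to 145) classes did not overlap each other, with smaller classes of wider interval among them. The basal-like over distal luminal-like ratio was 1.64 (1.17 to 2.24) for ventral and 1.54 (1.48 to 1.61) for proximal cells. With mt- genes, Sbp and Spink1 left out of the total, the ventral log2 ratio of 0.71 turned to -0.18, and the proximal one was 0.36 in place of 0.63.

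Genes of the Kcnq1ot1 domain are given in the same classes. Kcnq1, the potassium channel gene that hosts Kcnq1ot1, had 1.38 CPM (1 UMI) in ventral and 7.05 in proximal basal-like cells, against 1.13 and 4.52 in distal luminal-like cells. Cd81, a membrane protein gene of the domain, had 298 CPM in ventral basal-like and 64.0 in distal luminal-like cells, but 104 and 108 in the proximal library. Phlda2, a growth-restraining gene of the domain, had 28.9 and 23.8 CPM in these ventral classes and 37.0 and 18.8 in the proximal ones. Cdkn1c, a cell cycle inhibitor gene named after its values were seen, had 109 CPM in ventral basal-like and 3.65 in distal luminal-like cells, and 71.9 and 5.16 in the proximal library. The allele that a molecule came from was not tested.

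Meg3 was found mainly in fibroblast-like cells. Fibroblast-like cells, found as a class only in the proximal library, held 2240 of its 2443 UMIs, 412 CPM (395 to 429), and 246 of 517 such cells (47.6%) had a UMI. All epithelial-named cells of that library had 65 UMIs, 0.866 CPM, a ratio of 476 (372 to 619). No UMI was found in macrophage-like, T or NK cell-like or seminal vesicle epithelium-like cells. After thinning, 101 of 511 fibroblast-like cells had a UMI, 19.8% (16.4 to 23.5), and 0 of 985 proximal luminal-like and 0 of 908 basal-like cells. These counts of 0 allow up to 0.305% and 0.330% of cells with a UMI at the thinned depth only. At full depth 1.72% and 0.991% of them had one. Smooth muscle-like cells had 16 UMIs in 6 cells, 12 of them in 1 cell.

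Fibroblast-like clusters differed in Meg3. The cluster led by Cxcl14 and Wif1 (237 cells) had 106 CPM (92.6 to 120) and a UMI in 21.9% of cells. The clusters led by Cxcl12 and Col3a1 (193 cells) and by Inmt and Fbln1 (87 cells) had 619 (588 to 652) and 613 (561 to 668) CPM and a UMI in 69.4% and 69.0%. Within each cluster the 10 cells with most Meg3 held 49.4%, 30.7% and 48.4% of its UMIs. Fibroblast-like cells with a Meg3 UMI had fibroblast markers, 6 genes summed, at 11519 CPM and those without at 5466, with median depths of 11530 and 8956 UMIs.

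Genes beside Meg3 in its imprinted domain were higher in the same cells. Of 5 domain genes 3 had enough UMIs to compare, and all 3 were at least 2-fold higher in fibroblast-like than in epithelial-named cells. They were Rian (62.2 against 0.160 CPM) and Mirg (20.8 against 0.0533), noncoding RNAs read from the same chromosome copy as Meg3, and Dio3, a thyroid hormone-inactivating enzyme gene read mainly from the other copy (42.5 against 5.91). Over all 15319 genes compared 10.5% were that much higher, and 2 of 5 members, Malat1 and Meg3. Dio3 was also found in proximal basal-like cells, at 30.3 CPM against 0.528 in distal luminal-like cells, where Meg3 stood at 1.39 and 0.674.

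In the ventral library Meg3 had 16 UMIs in 3 barcodes. The barcode with 11 and the barcode with 4 UMIs were clustered with basal-like cells, but had 0 UMIs of the basal keratins Krt5, Krt14 and Krt15. They had 41 and 18 UMIs of Dcn and 11 and 4 of Col3a1, matrix genes of fibroblasts, and held 15 of the 20 Col3a1 UMIs of the 141 ventral basal-like cells. The 20.7 CPM of Meg3 in that class therefore rested on barcodes with these marker counts, while 125 of the 141 cells had a Krt5 UMI. Dcn by itself did not mark fibroblasts here, since all 141 had it.

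A large share of Gm26917 lay in few barcodes. It gave 2789 ventral (56.5 CPM) and 32686 proximal UMIs (334 CPM), and the 10 barcodes with most of it held 27.3% and 39.9% of these, against 1.77% and 1.97% for Malat1. In 77 proximal barcodes it took at least 1% of UMIs, up to 25.4%, and these held 72.2% of its UMIs. Of the 77, 43 had over 10% mt- UMIs, and their medians were 3722 UMIs, 13.6% mt- UMIs, 3.23% ribosomal protein UMIs and 5.45% Gm42418. The other 4267 barcodes had medians of 13984 UMIs, 4.43%, 18.4% and 0.743%. In the ventral library 5 barcodes reached 1%, all with over 10% mt- UMIs.

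By class Gm26917 lay between 34.5 and 75.5 CPM in the ventral library, with proximal luminal-like cells first and the other 4 classes overlapping. That first place came from 1 cell with 47 of the class's 94 UMIs. Without the top cell of each class, proximal luminal-like cells had 38.2 CPM (28.1 to 50.8) and distal luminal-like cells 41.5 (39.7 to 43.4). In the proximal library distal luminal-like cells had 555 CPM (547 to 563), macrophage-like cells 429 and T or NK cell-like ones 163 CPM (113 to 226), and the other named classes with at least 20 cells 47.3 to 100. The distal luminal-like level came from a few cells: the cluster led by Ren1 and other secretory genes (231 cells) had 1630 CPM and 49.8% of all proximal Gm26917 UMIs, and without its 20 barcodes at 1% or more it had 96.2. The median cell of that cluster had 55.1 CPM. Of the macrophage-like UMIs, 61.8% were in 1 cell, and without 2 barcodes at 1% or more that class had 108 CPM (88.5 to 131). Distal luminal-like cells had 106 (102 to 109) without theirs. Gm26917 and Gm42418, neighbours on chromosome 17, shared no stretch of 25 bases on either strand, while Gm42418 and AY036118, which overlap on opposite strands, shared 899.

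**Figure D2:**
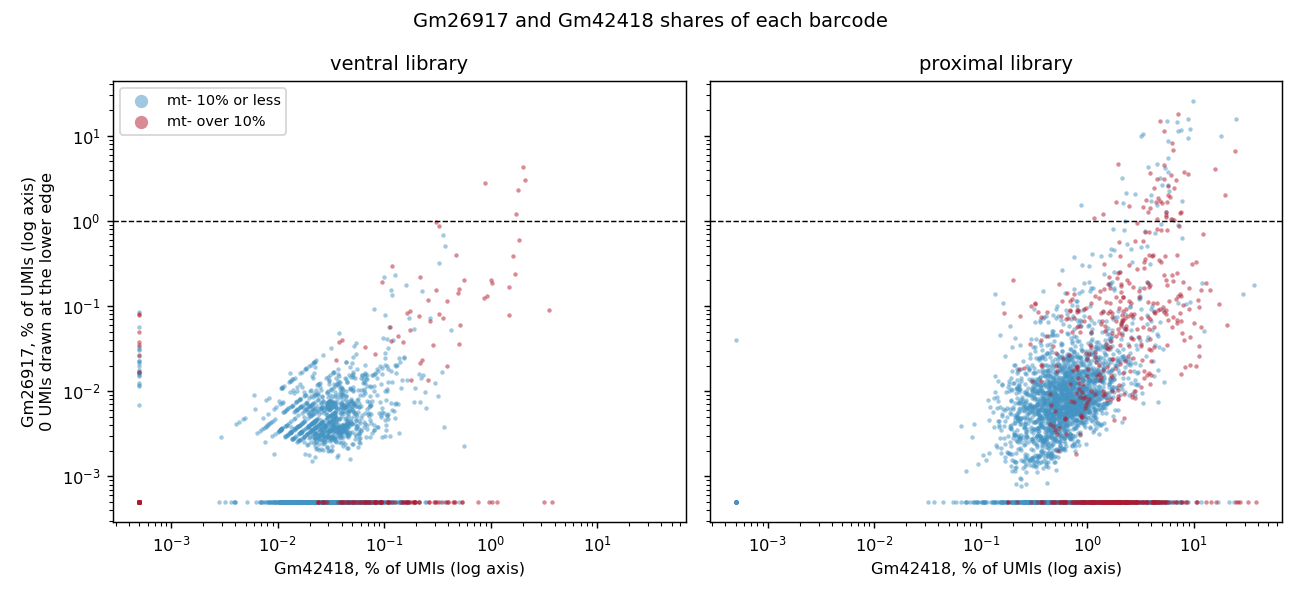
Gm26917 against Gm42418 in each barcode, both in percent of UMIs on log axes, by library and mt- share, with 0 UMIs drawn at the lower or left edge. The dashed line marks 1% Gm26917, above which 5 ventral and 77 proximal barcodes lie, towards the right of the plot.

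Between the libraries, 3 of 4 members compared were at least 2-fold higher in proximal than in ventral distal luminal-like cells, beside 9.07% of 12496 genes. Neat1 was 3.84 times higher (3.71 to 3.97), Kcnq1ot1 4.96 times (4.69 to 5.25) and Gm26917 12.1 times (11.5 to 12.6). Gm26917 had a log2 ratio of 3.59, and of 1.20 without the barcodes in which it took 1% or more. Malat1 was level at 1.02 (1.02 to 1.03), and its log2 ratio of 0.03 turned to -0.59 with mt- genes, Sbp and Spink1 left out of the total. In proximal luminal-like cells, 2 of 4 members were at least 2-fold higher, beside 10.7% of 12183 genes: Neat1 4.24 times (3.77 to 4.78) and Kcnq1ot1 3.81 times (2.85 to 5.21). Malat1 was 1.54 times higher there (1.52 to 1.56), and Gm26917 had a ratio of 1.02 (0.826 to 1.26). In basal-like cells Kcnq1ot1 was 4.67 times higher (3.42 to 6.55) and Malat1 1.52 times (1.5 to 1.55). With mt- genes, Sbp and Spink1 left out of the total, the log2 ratios of Kcnq1ot1 were 1.69, 1.67 and 2.23 in distal luminal-like, proximal luminal-like and basal-like cells, in place of 2.31, 1.93 and 2.22. Those of Neat1 were 1.32, 1.82 and 5.13, in place of 1.94, 2.08 and 5.12. Gm42418 had ratios of 12.9, 12.4 and 40.0 in distal luminal-like, proximal luminal-like and basal-like cells.

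Against the mt- share, Malat1 was low where mt- UMIs were nearly missing. Malat1 is given here in percent of UMIs other than mt-, so that mt- UMIs do not set it. In the ventral library its median was 0.00901% in the 54 barcodes with under 0.25% mt- UMIs and 0.00946% in the 12 with 0.25 to 0.5%. It was 0.553% in the 28 barcodes up to 1%, and between 0.943% and 1.97% from 1 to 10%. The 54 barcodes still held secretory message, with Sbp and Spink1 at a median of 46.4%. In the proximal library the medians were 0.109%, 0.301% and 0.136% in the 28, 23 and 45 barcodes below 1%, 1.54% from 1 to 2%, and between 2.76% and 3.31% from 2 to 10%. Low-mt- barcodes were therefore low in Malat1 in both libraries by their medians.

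The summed level told this less plainly. Barcodes under 1% mt- had 0.443 (0.430 to 0.458) times the Malat1 of barcodes with 1 to 10% among ventral and 0.563 (0.552 to 0.573) times among proximal barcodes. The 5 barcodes with most Malat1 held 54.6% and 48.6% of that of the low group, and 66 of 94 and 44 of 96 were under 0.1%. With the limit at 0.5% the ventral log2 ratio was -2.56 and at 2% it was -0.16, in place of -1.17. In proximal distal luminal-like cells alone the summed ratio was 1.32 (1.29 to 1.35) although the medians were 0.0573% and 0.929%. Here 5 of 53 low-mt- cells held 60% of the UMIs.

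Above 10% mt- the picture split. The 54 ventral barcodes with 10 to 20% had a median of 4.59% Malat1, and the 146 above 20% a median of 1.09%, of which 39 were under 0.1% and 24 at 10% or more. Proximal medians were 3.16% in 233 barcodes and 0.787% in 331. Gm26917 was highest above 20% mt-, at 2588 ventral and 9098 proximal CPM, and so was Gm42418, at 4946 and 58868. Ribosomal protein genes took a median of 6.68% and 4.67% of UMIs there.

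**Figure D3:**
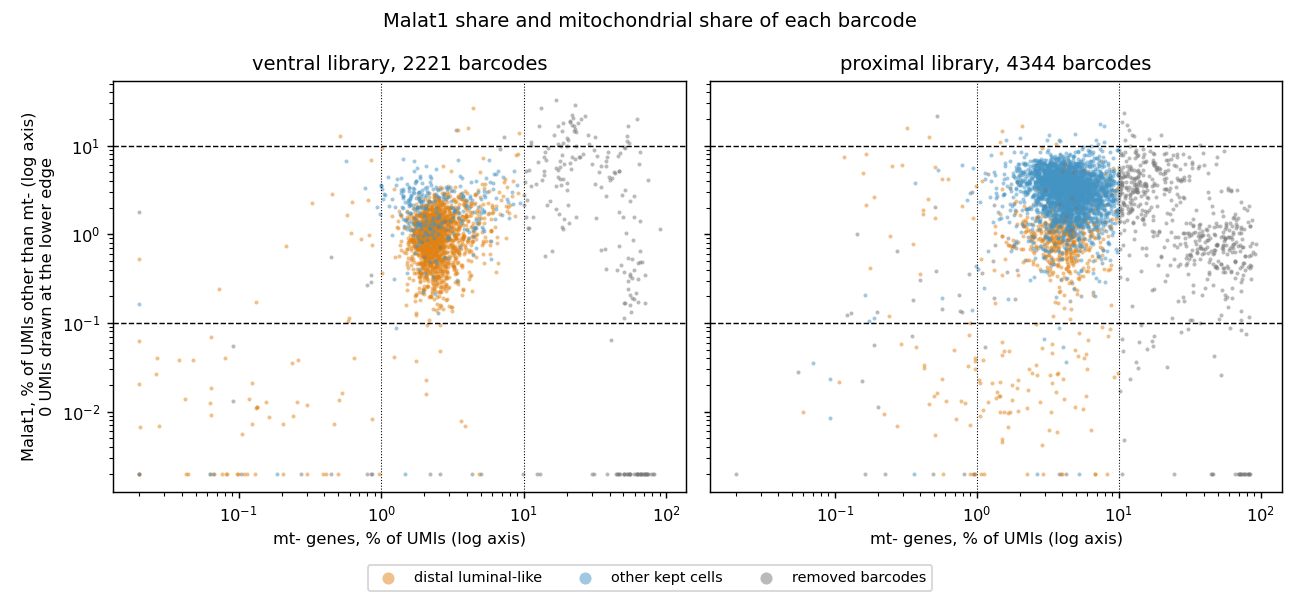
Malat1 in percent of UMIs other than mt- against the mt- share of each barcode, both on log axes, with 0 UMIs of Malat1 drawn at the lower edge and mt- shares under 0.02% at 0.02%. Dashed lines mark 0.1% and 10% Malat1 and dotted lines 1% and 10% mt-; distal luminal-like cells (orange) make up most of the points below 0.1% among kept cells, 63 ventral and 104 proximal ones.

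Malat1 was also set against depth. Over all ventral barcodes the share under 0.1% was highest among the shallowest, 47.6% (30 of 63) at 500 to 1000 UMIs, 29.1% at 1000 to 2000, 7.25% at 2000 to 5000 and 13.2% at 5000 to 10000. Over all proximal barcodes it was 9.60% at 500 to 1000 UMIs, 5.57% at 5000 to 10000 and 0.286% at 40000 or more. Below 1000 UMIs 1 Malat1 UMI is over 0.1%, so there the share counts barcodes without any. The 63 shallowest ventral barcodes also had a median of 46.4% mt- UMIs, and 2 of them were kept. In ventral distal luminal-like cells the median was 0.813% at 40000 UMIs or more, 0.930% at 20000 to 40000 and 1.05% at 10000 to 20000. It was 0.575% at 5000 to 10000, where 25 of 71 cells were under 0.1%, against 0 of 139 in the deepest group. In proximal distal luminal-like cells 39 of 74 cells with 10000 to 20000 UMIs were under 0.1%, and 2 of 389 with 40000 or more. Among distal luminal-like cells, those low in Malat1 were thus also found at middle depth.

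Barcodes were sorted into ranges by Malat1 after these values had been seen, at 0.1% and 10% of UMIs other than mt-. Such ranges are not cell types, and 17 ventral and 40 proximal barcodes lay within 1.5-fold of the lower limit and 53 and 143 of the upper. The Malat1-rich range, at 10% or more, held 42 ventral and 29 proximal barcodes. They were low in ribosomal protein UMIs, at medians of 3.70% and 4.01% against 13.7% and 18.3% in the middle range. They were high in Neat1, with 1096 and 1690 CPM (of UMIs other than mt-) against 105 and 839, and in Kcnq1ot1, with 269 and 522 against 36.1 and 176. The mRNAs of 12 nuclear speckle proteins summed to 4364 and 4412 CPM against 1117 and 3003, and the noncoding RNAs found mainly in the cytoplasm to 645 and 1032 against 865 and 1117. Of the Malat1-rich barcodes 35 of 42 ventral and 10 of 29 proximal ones also had over 10% mt- UMIs, and 11 of the 29 were fibroblast-like, the class with 43515 CPM of Malat1. Against middle-range barcodes also over 10% mt-, Neat1 had 958 against 592 CPM ventral and 1002 (702 to 1387) against 881 proximal. Kcnq1ot1 had 236 (142 to 369) against 184 and 195 against 214, and the speckle mRNAs 4206 against 2348 and 3702 against 3867. At 1 to 10% mt-, 6 ventral and 16 proximal rich barcodes had Neat1 at 2616 against 103 and 1886 against 838. Kcnq1ot1 there had 628 against 35.3 and 547 against 174. Gm26917 had 3515 CPM against 51.9 in the ventral library but 320 against 358 in the proximal. Both rich in Malat1 and under 1% mt- were 1 ventral and 3 proximal barcodes. Whether a droplet held a nucleus was not tested.

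The Malat1-poor range, under 0.1%, held 124 ventral and 170 proximal barcodes, 57 and 56 of them among those removed. Neat1 had 12 and 41 UMIs in all of them, 15.2 and 24.6 CPM, and Kcnq1ot1 had 1 and 5. Gm26917 had 17 and 54 UMIs. Of kept cells in this range most were distal luminal-like, 63 of 67 ventral and 104 of 114 proximal ones. That is 3.69% of ventral and 15% of proximal distal luminal-like cells, against 0 of 141 and 1 of 908 basal-like cells. In the ventral library 56 of them fell into 1 cluster of 65 cells with a median of 0.134% mt-, and in the proximal library 78 fell into the cluster of 140 cells led by Prr9 and Pate14. Barcodes with at least 50% haemoglobin UMIs, 4 ventral and 16 proximal, were taken for red blood cells, which have no nucleus, and held Malat1 at 328 and 607 CPM of UMIs other than mt-. Free RNA or a second cell in these droplets was not separated from what red blood cells carry. The level in the Malat1-poor range is fixed by its limit and is not compared with this.

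Within distal luminal-like cells, Malat1-poor cells were set against the other cells, in CPM of UMIs other than mt-. All 3 other members compared were at least 2-fold lower in the ventral library, beside 9.91% of 7949 genes, and all 3 in the proximal library, beside 15.3% of 8945. These counts, and such counts below, were taken with 10 CPM added to each side. A gene under 10 CPM in the other cells could not be counted as lower, which can reduce the shares of all genes. The 3 members had 35.0 CPM or more there. Neat1 had 13.8 against 100 CPM in the ventral library, 7.30-fold lower (3.97 to 15.2), and 23.6 against 403 in the proximal, 17.0-fold (12.1 to 24.8). Kcnq1ot1 was found as 1 UMI in 63 ventral and 2 UMIs in 104 proximal Malat1-poor cells, against 35.0 and 182 CPM in the others, ratios of 0.0393 (9.94e-04 to 0.219) and 0.00789 (9.55e-04 to 0.0285). Gm26917 was 2.88-fold lower (1.65 to 5.59) and 31.2-fold lower (21.4 to 47.3), the second against cells that include the barcodes rich in it. All 3 were thus low in the cells chosen for low Malat1, in both libraries.

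These cells were also shallower and lower in mt- UMIs. Their median was 9059 UMIs against 27440 in the ventral library and 11411.5 against 55924 in the proximal, with mt- medians of 0.132% against 2.39% and 1.67% against 3.98%. Among cells of 5000 to 40000 UMIs the log2 ratio of Neat1 was -2.77 ventral and -4.75 proximal, beside -2.87 and -4.09 over all depths. Within the cluster led by Prr9 and Pate14, 78 Malat1-poor cells (median 10776.5 UMIs) were set against 62 others (31437.5). At a Leiden resolution of 2 a Prr9-led cluster of 43 cells (median 40578 UMIs) and a Pate14-led one of 100 cells (9878) were found, and whether the poor and the other cells share those leading genes was not tested. There Neat1 was 47.7-fold lower (29.7 to 82.1), Gm26917 15.9-fold (9.18 to 30.2), and Kcnq1ot1 had 1 UMI against 158 CPM. Again 3 of 3 members were at least 2-fold lower, beside 30.3% of 2068 genes.

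Other noncoding RNAs are given for the same cells, beside the 9.91% of ventral and 15.3% of proximal genes that were at least 2-fold lower. Airn, an imprinted antisense RNA that silences its neighbours, had 8.25 against 106 CPM in ventral and 16.5 against 234 in proximal cells. With 10 CPM added to each side, 2 of 8 of the nuclear list were at least 2-fold lower in the ventral library (median log2 ratio -0.63). In the proximal library 6 of 7 were (-1.25), and the medians of all genes were -0.26 and -0.28. Mir99ahg, a microRNA host gene, had 2.75 against 14.7 CPM and 1.43 against 45.7. Tug1 had 5.50 against 14.0 and 12.9 against 36.2, and Pvt1 6.88 against 8.91 and 5.01 against 55.5. Without the added 10 CPM, Mir99ahg, Tug1 and Firre were also 5.33-, 2.54- and 5.54-fold lower in the ventral library, and Jpx 2.52-fold in the proximal. The intervals of Tug1, Firre and Jpx in these comparisons reached 1-fold. Firre and Jpx were named after their values were seen. Of the noncoding RNAs found mainly in the cytoplasm, 0 of 5 were at least 2-fold lower in either library, with medians of -0.10 and 0.29. With 5 genes this count is not far from the shares of all genes. Gas5, whose spliced RNA sits on ribosomes, had 545 against 588 CPM in the ventral library, 1.08-fold lower (0.978 to 1.20), and 732 against 598 in the proximal. Snhg8 had 147 against 159 and 143 against 138. Snhg12 had 22 against 38.0 in the ventral library, 1.73-fold lower (1.06 to 3.03), and 92.4 against 95.9 in the proximal. Epb41l4aos had 44.0 against 39.0 and 102 against 74.5.

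Messages for proteins of nuclear speckles and of paraspeckles were looked at next. Of 12 speckle protein genes, 5 ventral and 8 proximal ones were at least 2-fold lower with 10 CPM added to each side (medians -0.88 and -1.14). Without it Srrm1, Srsf7 and Luc7l3, named after their values were seen, were also 2.25-, 2.01- and 2.11-fold lower in the ventral library. Son, the large protein at the core of speckles, had 41.3 against 211 CPM and 74.5 against 310, while the splicing factor genes Srsf3 and Srsf5 had 97.6 against 107 and 81.1 against 122 in the ventral library, and 205 against 350 and 173 against 277 in the proximal. Srsf2, another splicing factor gene, had 82.5 against 115 and 159 against 457. Of 12 paraspeckle protein genes, 2 and 3 were at least 2-fold lower with the added 10 CPM (medians -0.25 and -0.45), near the 9.91% and 15.3% of all genes. The ventral median was close to the -0.26 of all genes. Without the addition Pspc1 and Rbm14 were also 5.26- and 3.58-fold lower in the ventral library (1 UMI each), and Rbm14 2.54-fold in the proximal. These 2 were named after their values were seen. Sfpq had 19.3 against 30.7 and 48.7 against 147. Hnrnpk had 143 against 102 and 228 against 205. Of the Kcnq1ot1 domain 0 of 6 genes were at least 2-fold lower in either library with the added 10 CPM (medians -0.08 and 0.07). Without it Osbpl5 had 0 UMIs against 4.54 CPM in the ventral library and Slc22a18 5.01 against 10.1 in the proximal. Both were named after their values were seen. Ribosomal protein genes had medians of 0.20 and 0.63. Gm42418 and AY036118 did not share the direction of Gm26917 in the proximal library, where they had 11385 against 4519 CPM and 421 against 98.4, and in the ventral 216 against 370 and 66.0 against 68.5.

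**Figure D4:**
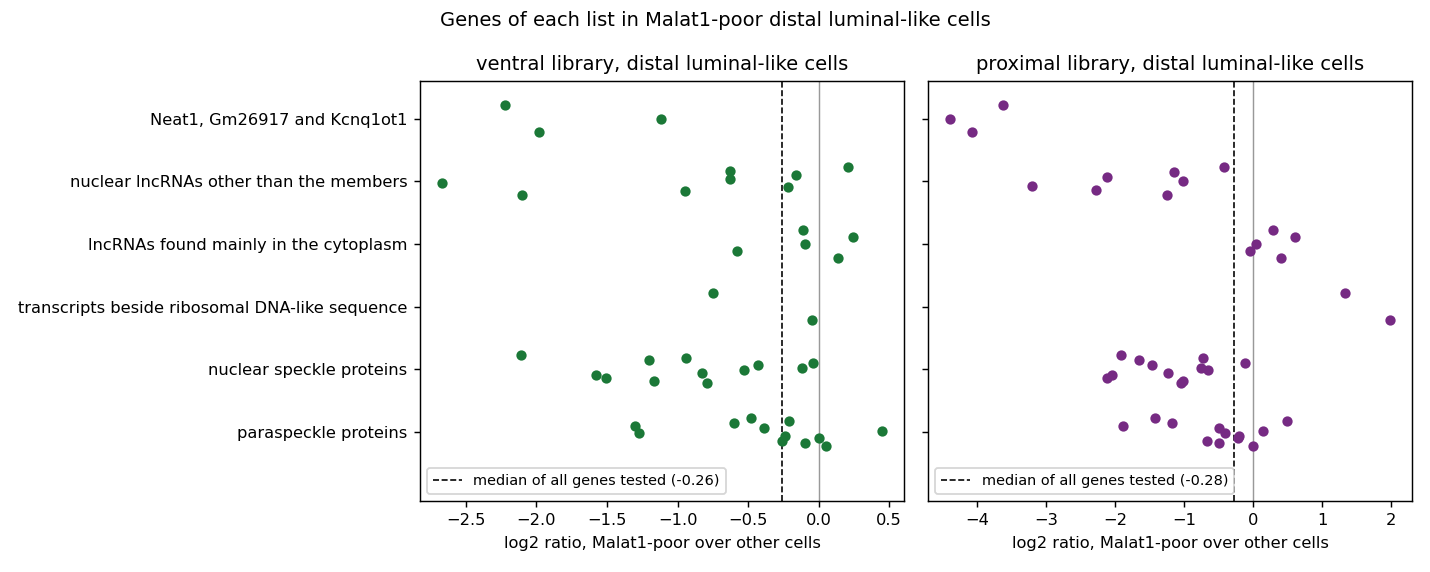
Log2 ratio (with 10 CPM added to each side) of the genes of each list in Malat1-poor over other distal luminal-like cells, 1 point per gene with enough UMIs, by library. The dashed line is the median of all genes compared (-0.26 ventral, -0.28 proximal); Neat1, Gm26917 and Kcnq1ot1 lie left of it in both libraries and the cytoplasmic noncoding RNAs lie on both sides of 0, from -0.58 for Snhg12 to 0.24 for Snhg6 (named after its value was seen) in the ventral library.

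The length of the gene on the chromosome went with the same difference. Of genes under 10 kb, 2.18% were at least 2-fold lower in Malat1-poor distal luminal-like cells of the ventral library, of those of 10 to 30 kb 4.19%, of 30 to 100 kb 12.1% and of 100 kb or more 32.6%. Proximal shares were 5.73%, 7.30%, 18.0% and 44.0%, and within the cluster led by Prr9 and Pate14 12.7%, 19.1%, 44.7% and 87.0%. The share increased with span in each of the 3 comparisons. A long gene holds mostly intron, and the files do not separate intronic from exonic molecules, so which of them were fewer was not tested.

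**Figure D5:**
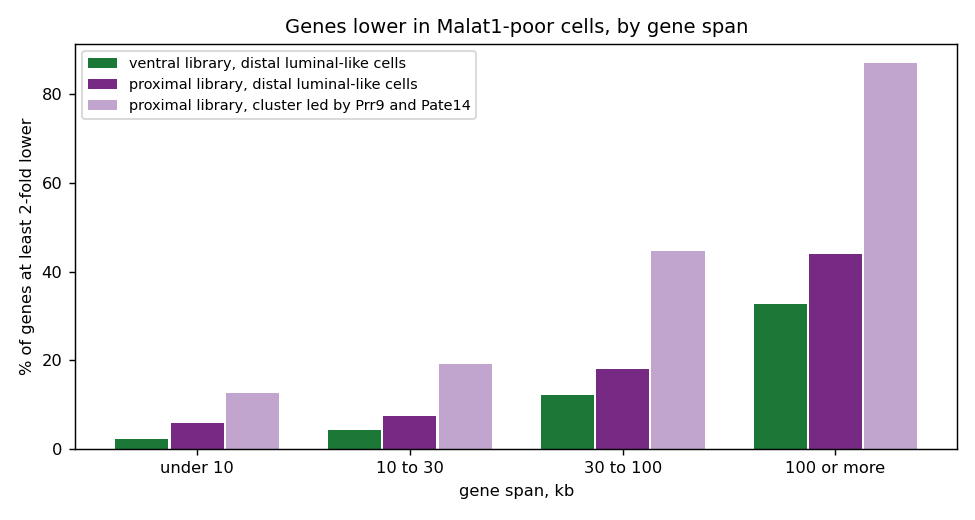
Share of genes at least 2-fold lower in Malat1-poor cells, in percent, by the annotated span of the gene in kb, for distal luminal-like cells of each library and for 1 proximal cluster. The bars climb with span in all 3 comparisons, from 2.18% to 32.6%, from 5.73% to 44.0% and from 12.7% to 87.0%.

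Over the 33 clusters of both libraries with at least 20 cells (13 ventral and 20 proximal), members were compared with 8374 genes on log2(CPM + 10) after each library's mean was taken out. These are correlations between clusters that share libraries and are given as descriptions. Malat1 was most like Med13 (r = 0.85), Chd4 (0.82) and Sptan1 (0.82), and Neat1 like Hipk3 (0.81), Mapk8 (0.80) and Heatr5a (0.77). Kcnq1ot1 was most like Fndc3b (0.71), Psme4 (0.70) and Ankrd17 (0.70). Gm26917 was most like Wdr7 (0.73), Ddit3 (0.72; 0.25 over ventral clusters) and Zmynd8 (0.68), and its highest cluster rests on the 20 barcodes named above. Meg3, itself too rare in the ventral library for the UMI minimum, was most like Fkbp7 (0.93), Nr2f1 (0.92) and S1pr3 (0.91), and for Nr2f1 and S1pr3 the ventral clusters alone gave 0.10 and -0.10. Among the members, Malat1 and Neat1 had r = 0.64 (0.76 over ventral and 0.61 over proximal clusters), Malat1 and Kcnq1ot1 0.51 (0.72 and 0.22) and Neat1 and Kcnq1ot1 0.45. Malat1 and Gm26917 had r = -0.07, made of 0.45 over ventral and -0.31 over proximal clusters. Neat1 and Gm26917 had r = -0.16, made of 0.61 and -0.33, and Gm26917 and Meg3 r = -0.08.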

How the data were processed

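The deposited files were 10x matrices of raw UMI counts per gene and barcode, made by the authors with Cell Ranger 7.0.0 against mm10, per the file headers and the submitters' processing notes; whether intronic reads or strand entered the counts was not given in the sources used here. The members and lists were chosen with earlier results of these data known.

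Levels of members, mt- and depth ranges used all barcodes. For cell classes, barcodes with at least 500 genes and at most 10% mt- UMIs were kept, clustered (scanpy 1.11.5, 2000 variable genes, 30 components, 15 neighbours, Leiden resolution 1) and named where at least 3 markers of a type were found in 25% of cells; the naming score was set after the clusters were seen. Scrublet called 0.351% and 0.108% of cells, too few to have worked, and removing the highest scores is an alternative. Counts were summed per class and library with exact 95% intervals (Poisson, Clopper-Pearson, and conditional for ratios; scipy 1.17.1). A share at 0 was limited by 3 counts. Genes needed 50 UMIs to be compared between libraries or 200 within a class. Log2 ratios of lists, and all counts of genes at least 2-fold higher or lower, used a pseudocount of 10 CPM. Single ratios and fold values were taken without it. Steps were tested on simulated data. Of each list up to 4 genes with at least 50 UMIs were named, by level over kept cells, with the 3 genes most like each member, and genes outside it are marked where named. Norad was not matched by symbol. With 1 library a group no p-value was computed. One gene that this rule names and one sequence are not reported here.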

Additional observations from a re-analysis of the deposited data

Results flagged for a closer look

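Some class ratios pointed opposite ways in the ventral and proximal library. The difference between the libraries was not tested in any of these, since each group had 1 library. Neat1 in basal-like over distal luminal-like cells was 0.499 (0.347 to 0.696) in the ventral and 4.52 (4.42 to 4.62) in the proximal library. Neat1 in basal-like over proximal luminal-like cells was 0.214 (0.146 to 0.305) and 1.76 (1.73 to 1.79). Gm26917 in proximal luminal-like over distal luminal-like cells was 1.64 (1.32 to 2.02) and 0.138 (0.132 to 0.145), and the ventral value rested on 1 proximal luminal-like cell with 47 of 94 UMIs. Without the top cell of each class both libraries lay on the same side, at log2 ratios of -0.12 and -2.64. In addition, 20 barcodes in 1 proximal distal luminal-like cluster held Gm26917 at 1% of UMIs or more. Malat1 in distal luminal-like cells under 1% mt- over those with 1 to 10% was 0.421 (0.407 to 0.436) and 1.32 (1.29 to 1.35), with 64.0% and 60% of the UMIs of the low group in 5 cells.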

How the results depend on the processing

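Of 204 values of 32 log2 ratios under other settings, 123 stayed within the counting interval, 75 moved beyond it in the same direction and 6 changed direction. Of 53 class levels of at least 20 CPM, 8 moved by over 1.5-fold without mt- genes, Sbp and Spink1 in the total, 9 when thinned, 6 with the mean of each cell's share and 3 at Leiden resolution 2, so the orders of classes hold for summed levels in all UMIs. The cause was not tested. With mt- genes, Sbp and Spink1 left out of the total, Malat1 in basal-like over distal luminal-like cells was 0.33 ventral (1.22 as reported) and 1.53 proximal (1.80), Neat1 -1.90 (-1.0) and 1.91 (2.18), Gm26917 in proximal over ventral kept cells 1.68 (2.43), Malat1 between libraries in distal luminal-like cells -0.59 (0.03), and Malat1 in low over middle mt- proximal barcodes -0.78 (-0.83). With the mean of each cell's share these were 1.16, 1.63, 1.74 for proximal Neat1, 3.68 and -0.90, ventral low mt- Malat1 was -1.08 (-1.17), Meg3 in fibroblast-like over epithelial cells 8.33 (8.89) and Neat1 in Malat1-poor proximal cells -4.65 (-4.09). With 5% free RNA subtracted, Malat1 was 1.27 ventral and 1.92 proximal for basal-like over distal luminal-like cells and -0.06 between libraries, proximal Neat1 2.30, and Meg3 had no value because the epithelial cells were at 0. Thinned to 1000 UMIs, Malat1 was 1.17 and 1.63, proximal Neat1 1.88, Gm26917 3.54 and Meg3 8.28. With a filter of 200 genes and 20% mt-, proximal Malat1 was 1.78, Gm26917 2.56 and Meg3 8.20. At Leiden resolution 2, proximal Malat1 was 1.91 and Neat1 2.37, and without the top Scrublet scores ventral Malat1 was 1.27. Settings chosen after seeing the data included leaving out Malat1-poor cells (proximal Malat1 1.74, Neat1 2.12) and barcodes with Gm26917 at 1% or more (Gm26917 0.78). Malat1 in low over middle mt- barcodes was -2.56 ventral and -0.55 proximal with the limit at 0.5%, and -0.16 and -0.50 at 2%. It was -1.25 and 0.40 in distal luminal-like cells alone, and for the proximal library -0.77 on all UMIs and -0.75 with at least 500 genes. Neat1 in Malat1-poor proximal cells was -3.56 with the limit at 0.2%, -5.09 over all barcodes and -4.75 at 5000 to 40000 UMIs, and Gas5 over all barcodes -0.01 (0.29). Ventral Kcnq1ot1 in basal-like over distal luminal-like cells was -0.18 (0.71) without mt- genes, Sbp and Spink1, and ventral Gm26917 in proximal luminal-like over distal luminal-like cells -0.12 (0.72) without the top cell of each class. No paired analysis was possible because each group had 1 library, and for that reason no replicate could be left out. Depth limited Kcnq1ot1 in Malat1-poor cells (1 and 2 UMIs) and ventral Meg3 (16 UMIs).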
